A study of Mus musculus with 2 samples.

Results

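Long noncoding RNAs of the brain were examined in the 2 areas of the embryonic mouse brain that the study cut out by laser capture microdissection (LCM). Their genes, chosen by name, were *Malat1*, *Neat1*, *Meg3*, *Rian*, *Miat*, *Sox2ot*, *Dlx6os1*, *Pantr1*, *Snhg11* and *Peg13*, which are 10 of the 24411 genes in the count tables. All 10 were among the 12738 genes that reached a mean of 1 CPM (reads of a gene per 1000000 gene reads) over both libraries, the minimum for every count of genes given here. LCM uses a laser to excise regions from stained sections, and each region was then profiled by bulk RNA-seq. The SVZ library was made from the subventricular zone, the germinal layer beside the lateral ventricles, and the cortex library from the cortical area in which new neurons settle. Both came from fresh-frozen brain at embryonic day 16.5, and they differed by label only in the area cut. They are called SVZ and cortex below. The labels give no genotype, strain, treatment or number of animals for either library. With 1 library for each area, no difference described here has a replicate check and no test between areas was possible. The intervals in parentheses, at 95%, were computed from reads by the exact Clopper-Pearson method. They hold the counting error of reads alone and leave out variation between embryos and sections. PCR copies are not independent molecules, so the intervals can be too narrow even for counting error.

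Long noncoding RNAs are transcripts of considerable length that are not translated into protein, and many are spliced and polyadenylated like messenger RNAs. *Malat1*, *Neat1* and *Miat* stay in the nucleus, where the first is found in the speckles that store splicing factors, the second builds the paraspeckles and the third forms bodies of its own. *Meg3* and *Rian* are expressed from the maternal copy of the imprinted *Dlk1*-*Dio3* region, *Peg13* is an imprinted transcript inside *Trappc9*, *Sox2ot*, *Dlx6os1* and *Pantr1* lie at the loci of transcription factor genes of the developing forebrain, and *Snhg11* is a host gene of small nucleolar RNAs.

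Sequences were read from the reference for the features that set some of these RNAs apart. The motif TACTAAC, known in *Miat* as a repeat that binds the splicing factor SF1 and equal to the branch point of yeast introns, was searched on the transcribed strand of the longest GENCODE M21 transcript of each gene. *Miat* held 6 copies in 9163 bases, starting at bases 4941, 5041, 5066, 5589, 5603 and 5623 of the transcript, *Neat1* held 1 copy in 20771 bases and the other members held 0. Among 10047 annotated long noncoding RNA genes, *Miat* included, 3.72% held at least 1 copy. At least 6 copies were held by 2 genes, or 0.0199%, and *Miat* is 1 of these 2. The 2 stretches that carry the copies are shown because they are the sequence for which *Miat* is known. They lie on the minus strand of GRCm38 at chr5:112217309-112217460 and chr5:112216752-112216812, both in exons of *Miat*, and capitals mark the motif.
Miat, first stretch: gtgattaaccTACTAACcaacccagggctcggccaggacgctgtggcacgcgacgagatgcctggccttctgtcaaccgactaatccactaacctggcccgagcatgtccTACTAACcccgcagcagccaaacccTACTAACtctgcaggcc
Miat, second stretch: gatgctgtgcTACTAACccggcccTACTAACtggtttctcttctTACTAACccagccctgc

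The 3′ ends of the neighbours *Malat1* and *Neat1* are shown because their annotated transcripts differ in the polyadenylation signal AATAAA, whose capitals mark it below. The signal was searched in the last 40 bases of each longest transcript, on the transcribed strand, and was found in 6 of the 10 genes (*Malat1*, *Meg3*, *Rian*, *Pantr1*, *Snhg11* and *Peg13*) and in 31.9% of the 10047 long noncoding RNA genes. It was found in the 3004-base short transcript of *Neat1* and not in the 20771-base long one. The windows are GRCm38 chr19:5795690-5795729 (*Malat1*), chr19:5842307-5842346 (short *Neat1*) and chr19:5824708-5824747 (long *Neat1*), all on the minus strand.
Malat1: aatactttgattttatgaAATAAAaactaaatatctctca
Neat1, short transcript: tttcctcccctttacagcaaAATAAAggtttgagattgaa
Neat1, long transcript: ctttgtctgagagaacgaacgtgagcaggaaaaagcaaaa

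Facts of the libraries bear on all of the values. Gene reads numbered 51435667 for the SVZ and 22050693 for the cortex, 2.33 times fewer, so that 1 read was worth 0.0194 and 0.0454 CPM and a count of 0 allowed up to 0.0583 and 0.136 CPM (3 reads). The labels of the areas were checked against markers. All 7 progenitor markers were at least 2-fold higher in SVZ (log2 ratios of CPM from 3.58 to 11.29, with a sum of 6193 CPM against 83.4 in cortex). All 7 neuron markers were higher in cortex, 5 of them at least 2-fold, with a median log2 ratio of -2.06. Of the markers of other cells, some differed with the area and others were near even. The 4 microglia markers were all at least 2-fold higher in SVZ, summing to 30.5 against 3.58 CPM. The 4 vessel markers were within 2-fold and summed to 61.1 and 47.8 CPM. The 4 genes of the oligodendrocyte lineage summed to 9.33 and 11.2 CPM. Of 5 erythroid markers, 4, the globins, were at 0 in both libraries. Reads that map to several places are not counted, so these zeros do not show absence. The fifth, *Alas2*, had 761 reads in SVZ and 165 in cortex, or 14.8 and 7.48 CPM (log2 ratio 0.98, interval 0.74 to 1.24). The choroid plexus and meninges list summed to 244 CPM in SVZ and 3.17 in cortex, nearly all of it *Ttr* (12363 and 16 reads). *Folr1* was also higher in SVZ (141 and 0 reads). *Dcn* was on the cortex side (62 and 52 reads, log2 ratio -0.97, interval -1.52 to -0.41). *Col1a1* had 0 and 2 reads and *Kl* had 0 in both. The sum thus reflects *Ttr* and does not stand for the whole list. The part of these cells in the differences below was not tested, and in bulk samples fewer cells of a type and less RNA per cell cannot be told apart.

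The 10 genes divided evenly between the areas. *Sox2ot*, *Pantr1*, *Neat1* and *Dlx6os1* (4 of 10) were at least 2-fold higher in SVZ, a size reached in that direction by 20.0% of all 12738 genes. *Meg3*, *Rian*, *Snhg11* and *Peg13* (4 of 10) were at least 2-fold higher in cortex, against 15.6% of all genes. *Malat1* and *Miat* stayed within 2-fold. The median log2 ratio of SVZ to cortex CPM was -0.11 over the members and 0.11 over all genes, whose quartiles were -0.56 and 0.76. The counting interval was off equal CPM for 10 of 10 members and for 86.8% of all genes, so that at this depth it did not set the members apart. The spread among the 10 genes was wide, from a log2 ratio of 3.02 for *Sox2ot* to -2.84 for *Meg3*.

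**Figure D1:**
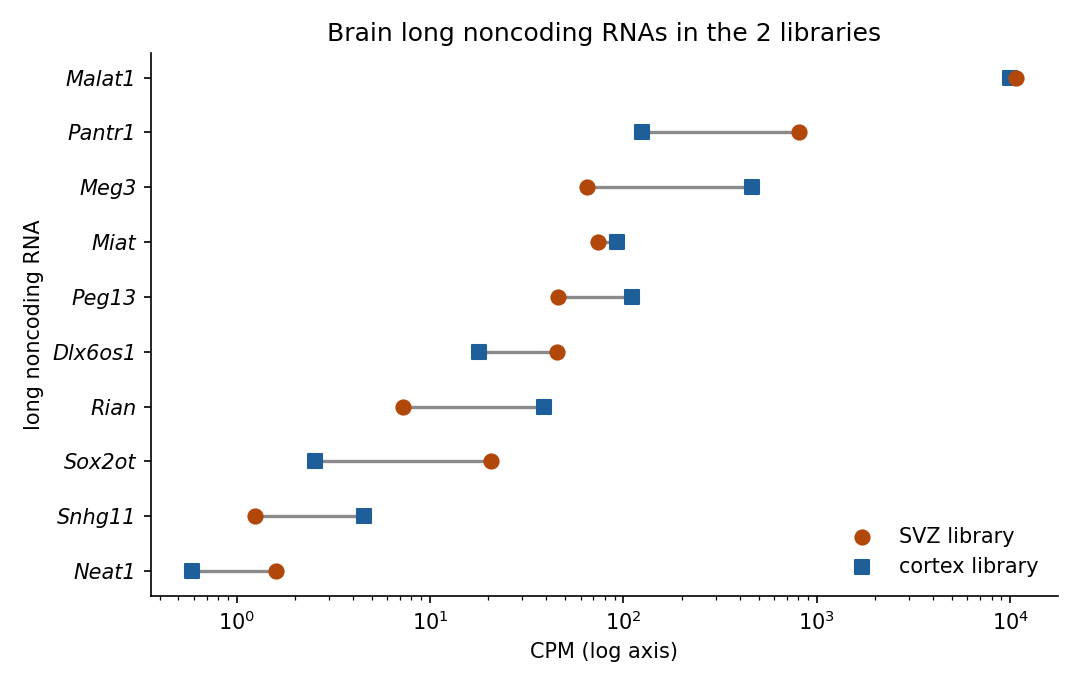
CPM of the 10 long noncoding RNAs on a log axis, with 1 point for the SVZ library (circle) and 1 for the cortex library (square), joined by a line and ordered by mean CPM. *Malat1* is at 10742 and 9959 CPM, *Pantr1* is at 807 and 125 CPM, *Meg3* is at 64.4 and 463 CPM, and the points of *Neat1* lie at 1.59 and 0.59 CPM.

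**Figure D2:**
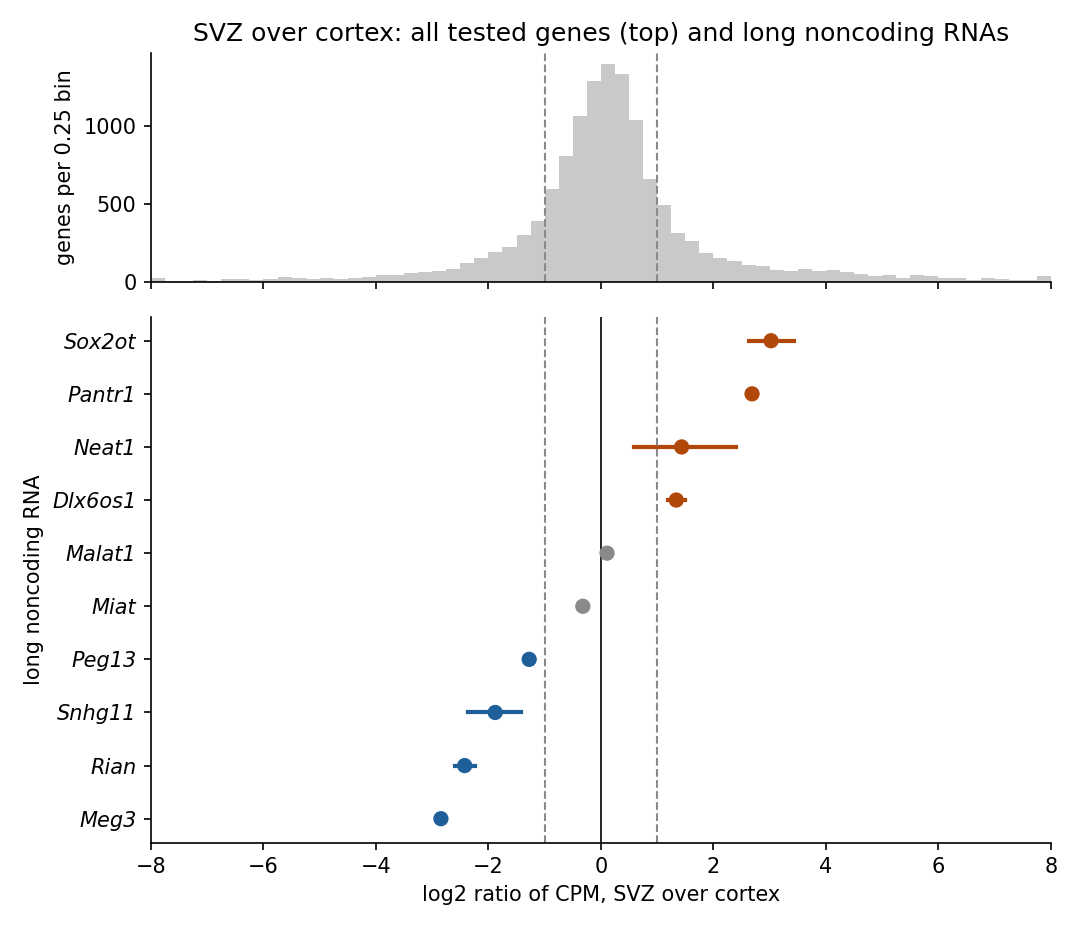
Log2 ratio of CPM, SVZ over cortex: the upper panel counts all 12738 tested genes in bins of 0.25, with genes beyond either end placed in the end bins, and the lower panel shows each long noncoding RNA with its 95% counting interval. Dashed lines mark 2-fold. *Sox2ot*, *Pantr1*, *Neat1* and *Dlx6os1* lie right of 2-fold and *Peg13*, *Snhg11*, *Rian* and *Meg3* left of it, and the interval of *Neat1* crosses the line.

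Of the nuclear RNAs, *Malat1* (GRCm38 chr19:5795690-5802672, minus strand, 1 exon of 6983 bases) had 552513 reads in SVZ and 219604 in cortex, or 10742 and 9959 CPM. It was the most counted of all genes in SVZ and ranked 3 in cortex. *Malat1* alone took 55.6% of the reads of genes that RefSeq classes as long noncoding in SVZ and 58.1% in cortex. Its log2 ratio was 0.11 (0.10 to 0.12), a 1.08-fold difference that placed it at the middle of the distribution, with 50.2% of all genes at a higher ratio. Under upper-quartile scaling the ratio was 0.01.

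*Neat1* (chr19:5824708-5845478, minus strand), the scaffold of paraspeckles, lies 22.0 kb from *Malat1* on the same strand and was among the least counted of the set. It had 82 reads in SVZ and 13 in cortex, or 1.59 and 0.59 CPM. The log2 ratio of 1.44 (0.58 to 2.40) was in the direction of the SVZ, but with 13 cortex reads the interval reached below 2-fold. With a pseudocount of 1 CPM the ratio was 0.71 and *Neat1* no longer counted as 2-fold apart, and when the SVZ library was thinned to the cortex depth it fell under the mean of 1 CPM. The microglia markers were higher in the same library (log2 ratios from 1.90 to 4.33), and their part in the *Neat1* value was not tested. Per length, in reads per kilobase of the longest transcript per 1000000 gene reads (RPKM), the level of *Malat1* was 20042 times that of *Neat1* in SVZ and 50247 times in cortex. For *Neat1* that length is the 20771 bases of the long transcript. At the 3004 bases of the short transcript both ratios would be smaller, and the counts do not tell the transcripts apart. The long transcript lacks AATAAA in its last 40 bases, and how well the library kit captured each transcript was not tested.

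Genes that encode proteins of the bodies that these RNAs mark were compared with them, by RNA level. Of 9 genes of paraspeckle proteins, among them *Nono* and *Sfpq*, 0 were 2-fold apart. Their log2 ratios ran from -0.65 to 0.76 with a median of 0.18. Of 9 nuclear speckle genes, splicing factors such as *Srsf2* and scaffold proteins such as *Son*, 0 were 2-fold apart either, and all 9 were on the SVZ side with log2 ratios from 0.11 to 0.64. Of all 12738 genes, 20.0% were at least 2-fold higher in SVZ and 15.6% in cortex. *Malat1* and the genes of both lists thus lay within 2-fold as most genes did. The *Neat1* ratio exceeded each of the 9 paraspeckle ratios as a point value.

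*Miat* (chr5:112213228-112229395, minus strand), the RNA with the TACTAAC copies shown above, had 3804 and 2038 reads, or 74.0 CPM in SVZ and 92.4 CPM in cortex. The log2 ratio was -0.32 (-0.40 to -0.24), a 1.25-fold higher level in cortex. The 3 genes listed for RNA-binding proteins tied to *Miat* went separate ways. *Sf1*, the splicing factor that binds its repeats, had 95.6 and 101 CPM and a log2 ratio of -0.08 (-0.16 to -0.01). *Celf3*, a neuronal splicing regulator, had 12.8 and 29.5 CPM and a log2 ratio of -1.21 (-1.37 to -1.05). *Qk*, an RNA-binding protein of neural progenitors and glia, had 1996 and 191 CPM and a log2 ratio of 3.39 (3.34 to 3.43). *Miat* and *Sf1* were therefore near even between the libraries, while *Celf3* was higher in cortex and *Qk* in SVZ.

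Among the RNAs at transcription factor loci, *Sox2ot* (chr3:34104270-34682619, plus strand) had the highest ratio of the set. *Sox2*, the gene of a transcription factor that keeps neural progenitors undifferentiated, lies inside an intron of *Sox2ot* on the same strand, with 0 bases of shared exon. *Sox2ot* had 1063 reads in SVZ and 56 in cortex, or 20.7 and 2.54 CPM. The log2 ratio was 3.02 (2.64 to 3.44), an 8.14-fold difference, and 6.27% of all genes had a higher one. *Sox2* had 2959 and 95 reads, or 57.5 and 4.31 CPM, and a log2 ratio of 3.74 (3.44 to 4.05). Both genes of the locus were higher in SVZ, and their counting intervals did not overlap, although the facing ends both round to 3.44. The level of *Sox2ot* was 0.212 of the *Sox2* level in SVZ and 0.348 in cortex, in RPKM of the longest transcripts. With the summed length of all annotated exons it was 0.0637 and 0.105.

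*Pantr1* (chr1:42590782-42694842, minus strand) starts 925 bases from *Pou3f3*, which encodes a POU-domain transcription factor of the developing cortex and is read in the opposite direction. It was the second most counted long noncoding RNA of the SVZ library. *Pantr1* had 41519 reads in SVZ and 2764 in cortex, or 807 and 125 CPM, and ranked 10 among the long noncoding RNAs of the cortex library. The log2 ratio of 2.69 (2.63 to 2.74), or 6.44-fold, had the narrowest interval of the 4 members higher in SVZ. *Pou3f3* had 185 and 72.9 CPM and a log2 ratio of 1.34 (1.26 to 1.42). *Pantr2*, a further noncoding gene on the far side of *Pou3f3*, 12.2 kb from *Pantr1*, had 1128 and 23 reads, or 21.9 and 1.04 CPM, and a log2 ratio of 4.39 (3.80 to 5.06). All 3 genes of the locus were at least 2-fold higher in SVZ, and no pair of their intervals overlapped. The RPKM level of *Pantr1* was 15.5 times that of *Pou3f3* in SVZ and 6.11 times in cortex, and 7.27 and 2.86 times with the summed exon length.

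*Dlx6os1* (chr6:6820189-6871592, minus strand), also known as Evf2, is antisense to *Dlx6* in the *Dlx5*-*Dlx6* locus, which is active in GABAergic interneurons and their precursors. It had 2321 reads in SVZ and 393 in cortex, or 45.1 and 17.8 CPM. The log2 ratio was 1.34 (1.19 to 1.50), or 2.53-fold. *Dlx6*, a homeobox gene that lies within an intron of *Dlx6os1*, had 74 and 16 reads, or 1.44 and 0.726 CPM, and a log2 ratio of 0.99 (0.19 to 1.87), which overlapped that of *Dlx6os1*. *Dlx5*, the homeobox gene next to it, had 20.5 and 11.7 CPM and a log2 ratio of 0.82 (0.62 to 1.02). The RPKM level of the noncoding RNA was 15.1 times that of *Dlx6* in SVZ and 11.8 times in cortex, and 0.679 and 0.472 of that of *Dlx5*. Of the 8 genes of a Dlx and interneuron list, 2 were at least 2-fold higher in SVZ, near the share of 20.0% over all genes. Among them was *Dlx1*, a homeobox gene of interneurons (27.2 and 12.1 CPM, log2 ratio 1.17). For *Dlx1*, 1821 SVZ reads and 419 cortex reads in the stranded columns were not in the unstranded count. The other 6 were within 2-fold, the list's median log2 ratio was 0.65, and the list summed to 151 and 107 CPM. Their part in the *Dlx6os1* value was not tested.

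The imprinted members *Meg3*, *Rian* and *Peg13* were each higher in cortex. Imprinted RNAs outside the members went both ways, and those given here were named after their values were seen. *H19* had 390 reads in SVZ and 43 in cortex (log2 ratio 1.96, interval 1.50 to 2.45), and *Snhg14* was also on the SVZ side (0.38). *Kcnq1ot1*, *Nespas* and *Ipw* were on the cortex side (log2 ratios -0.66, -0.58 and -1.80). No count over all imprinted RNAs was made. *Meg3* (chr12:109541001-109571726, plus strand) had 3314 reads in SVZ and 10206 in cortex, or 64.4 and 463 CPM, and ranked 25 among long noncoding RNAs in the first and 4 in the second. The log2 ratio of *Meg3* was -2.84 (-2.90 to -2.79), or 7.18-fold, and 4.01% of all genes had a lower one. *Rian* (chr12:109603940-109661716, plus strand), a host of C/D box small nucleolar RNAs, begins 32.2 kb after the end of *Meg3* on the same strand. *Rian* had 373 and 857 reads, or 7.25 and 38.9 CPM, and a log2 ratio of -2.42 (-2.60 to -2.24), or 5.36-fold. At most 5.13% of all genes had a lower ratio than either RNA of the cluster, and *Meg3* was below *Rian* beyond counting error.

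The annotated promoter windows of *Meg3* and *Rian* are shown because these genes of the same cluster had the lowest ratios of the set. Whether the windows act as separate promoters was not tested. They are RefSeq windows (GRCm38.p6) from 250 bases before to 50 bases after a gene start, at chr12:109540746-109541045 and chr12:109603695-109603994, both on the plus strand, and 6 of the 10 members had such a window. RefSeq gives a further *Meg3* window at chr12:109545148-109545447, also on the plus strand, which is not shown. The TATA box TATAAA, the box named after its letters CCAAT, the GC box GGGCGG and the cyclic AMP response element TGACGTCA, which is its own reverse complement, were searched on both strands, and capitals mark the matches. In the *Meg3* window the TATA box occurs on both strands, and these matches overlap.
Meg3: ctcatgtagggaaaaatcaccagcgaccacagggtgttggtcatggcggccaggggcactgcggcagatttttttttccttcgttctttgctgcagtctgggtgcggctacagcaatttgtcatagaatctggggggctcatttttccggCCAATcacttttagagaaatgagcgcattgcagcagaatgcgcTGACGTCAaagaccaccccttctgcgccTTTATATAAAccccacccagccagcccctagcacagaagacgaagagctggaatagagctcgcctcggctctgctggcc
Rian: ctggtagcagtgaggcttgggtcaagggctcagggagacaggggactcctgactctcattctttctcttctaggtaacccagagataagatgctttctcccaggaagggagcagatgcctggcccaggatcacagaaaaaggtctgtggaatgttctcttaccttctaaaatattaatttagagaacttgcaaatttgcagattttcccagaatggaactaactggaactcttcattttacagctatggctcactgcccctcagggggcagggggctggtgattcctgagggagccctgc
The *Meg3* window shown held TATAAA, found in 13.6% of 32851 RefSeq promoter windows of this length, CCAAT, found in 37.4% of them, and TGACGTCA, found in 1.79%, but not the GC box, found in 35.7%. The *Rian* window held none of the 4. The further *Meg3* window held none of the 4 either. The *Meg3* window shown had 13 CpG dinucleotides and 53.7% GC, the further one 1 CpG and 50.3% GC, and *Rian* 0 CpG and 49.3% GC, against medians of 7 and 52.7%.

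Other genes of the *Dlk1*-*Dio3* region, which is imprinted as a whole, were not alike. *Mirg*, a microRNA host transcript that follows *Rian* on the same strand, had 35 and 64 reads, or 0.680 and 2.90 CPM, and a log2 ratio of -2.09 (-2.73 to -1.48). Of the small nucleolar RNA rows that lie within *Rian*, *DQ267100* had 8 and 60 reads (log2 ratio -4.13, interval -5.40 to -3.06). *AF357425* had 2 and 21 reads (-4.61, interval -7.75 to -2.58) and *DQ267101* had 1 and 19 reads (-5.47, interval -10.85 to -2.82). These small RNAs have similar copies in the cluster, and reads that map to several places are not in the counts. *Meg3*, *Rian* and *Mirg* were thus all higher in cortex. The named small nucleolar RNA rows were too, but in GENCODE M21 they lie in exons of *Rian* on the same strand. Their reads cannot be told apart from *Rian* RNA. Noncoding genes of the region outside the spans of these members, other than *Mirg*, were not looked up. Of the paternally expressed protein-coding genes, *Dlk1*, a transmembrane ligand related to Notch ligands, had 87 reads in SVZ and 22 in cortex, or 1.69 and 0.998 CPM. The *Dlk1* log2 ratio was 0.76 (0.07 to 1.51), on the SVZ side. *Rtl1*, derived from a retrotransposon, had 3 and 9 reads, too few for the minimum of 1 CPM, with 38 further cortex reads in the stranded columns alone, and a log2 ratio of -2.81 (-5.33 to -0.80). *Dio3*, an enzyme that inactivates thyroid hormone, had 0 reads in both libraries.

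*Peg13* (chr15:72805600-72810324, minus strand) is a transcript of 1 exon within an intron of *Trappc9*, on the same strand, and is expressed from the paternal copy. It had 2352 reads in SVZ and 2441 in cortex, or 45.7 and 111 CPM. The log2 ratio was -1.28 (-1.36 to -1.19), or 2.42-fold. *Trappc9*, whose protein works in vesicle transport, had 17.7 and 20.6 CPM and a log2 ratio of -0.22 (-0.39 to -0.06), so that the ratio of *Peg13* was lower than that of its host beyond counting error. *Kcnk9*, an imprinted potassium channel gene of the same cluster, had 0 reads in both libraries. The RPKM level of *Peg13* was 2.48 times that of *Trappc9* in SVZ and 5.14 times in cortex, and 4.34 and 9.01 times with the summed exon length. Unspliced *Trappc9* RNA that covers the *Peg13* exon cannot be told apart from *Peg13* in these counts.

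*Snhg11* (chr2:158375638-158386145, plus strand), a small nucleolar RNA host gene known from neurons, had 64 reads in SVZ and 101 in cortex, or 1.24 and 4.58 CPM. RefSeq classes it as long noncoding, as it does the other 9 members, and GENCODE M21 as protein coding. The log2 ratio was -1.88 (-2.36 to -1.41), or 3.68-fold, and 7.67% of all genes had a lower one. Its whole interval lay past 2-fold even with 64 SVZ reads.

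**Figure D3:**
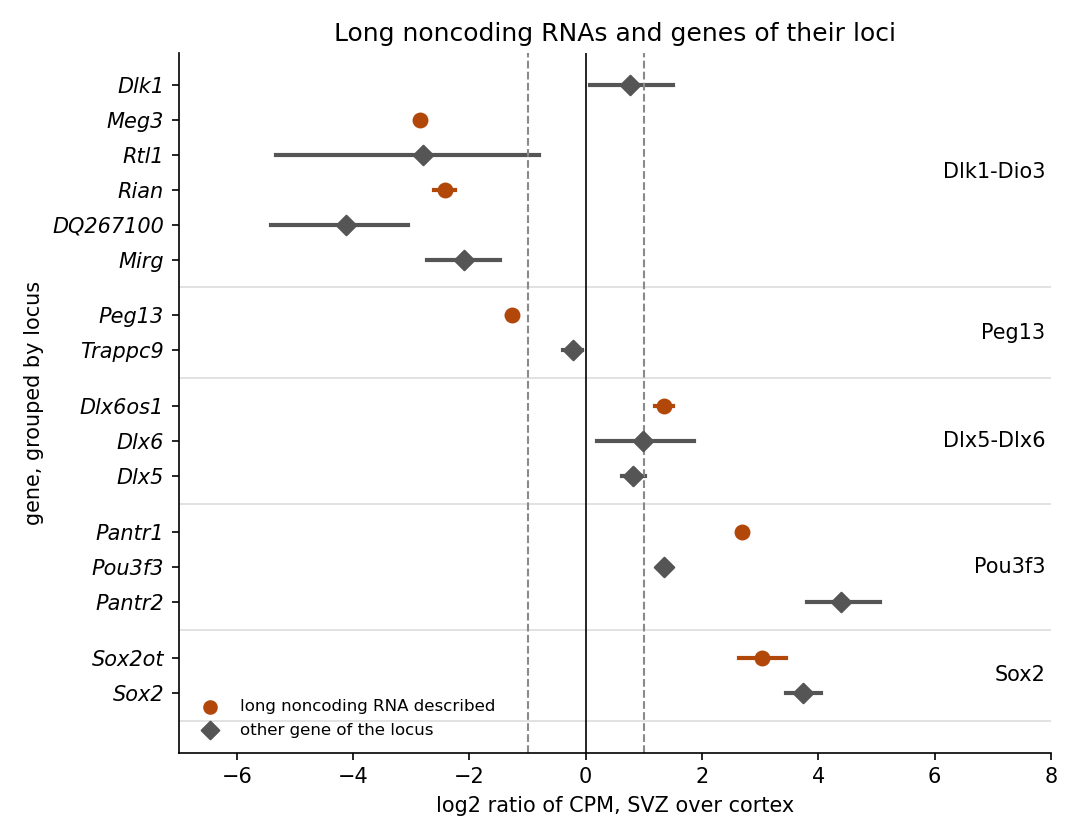
Log2 ratio of CPM, SVZ over cortex, with 95% counting intervals, for the long noncoding RNAs (circles) and other genes of their loci (diamonds), grouped by locus, with dashed lines at 2-fold. At the *Sox2*, *Pou3f3* and *Dlx5*-*Dlx6* loci every gene drawn lies right of 0, and at the *Dlk1*-*Dio3* locus *Dlk1* lies right of 0 at 0.76 while *Meg3*, *Rian*, *Mirg*, *Rtl1* and *DQ267100* lie left of it.

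Of the 11 genes listed as partners at these loci, 8 reached the mean of 1 CPM. Among those 8, *Sox2*, *Pou3f3* and *Pantr2* were at least 2-fold higher in SVZ, *Mirg* in cortex, and 4 were within 2-fold, with a median log2 ratio of 0.90 beside 0.11 for all genes. The shares past 2-fold over all genes were 20.0% in SVZ and 15.6% in cortex.

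Levels of the members were put in order per length, since a longer transcript gives more reads. In the SVZ library the RPKM levels were 1538 for *Malat1*, 387 for *Pantr1*, 9.79 for *Dlx6os1*, 9.68 for *Peg13*, 8.07 for *Miat*, 5.93 for *Sox2ot*, 4.43 for *Meg3*, 0.896 for *Rian*, 0.212 for *Snhg11* and 0.0768 for *Neat1*. *Dlx6os1* and *Peg13* did not differ beyond counting error, and every other pair of neighbours in that order did. In the cortex library the RPKM levels were 1426 for *Malat1*, 60.1 for *Pantr1*, 31.8 for *Meg3*, 23.4 for *Peg13*, 10.1 for *Miat*, 4.80 for *Rian*, 3.87 for *Dlx6os1*, 0.781 for *Snhg11*, 0.729 for *Sox2ot* and 0.0284 for *Neat1*. Here *Snhg11* and *Sox2ot* did not differ beyond counting error. *Malat1* and *Pantr1* led the order in both libraries, and *Neat1* closed it at the 20771 bases of its long transcript. The summed exon length of *Neat1* is the same, and its place at the 3004-base short transcript was not computed. *Meg3* moved from place 7 in SVZ to place 3 in cortex and *Sox2ot* from place 6 to place 9. With the summed length of all annotated exons in place of the longest transcript, *Dlx6os1* and *Peg13* changed places in SVZ, as did *Sox2ot* and *Meg3*, and *Rian* and *Dlx6os1* changed places in cortex.

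The members were also set beside the other long noncoding RNAs. RefSeq classed 2064 genes of the table as long noncoding, of which 468 reached the mean of 1 CPM, and together they held 1.93% of gene reads in SVZ and 1.71% in cortex. The 10 members took 61.1% and 63.1% of these reads. Without *Malat1*, the other 9 summed to 1067 CPM in SVZ and 856 CPM in cortex. Of the 458 others, 31.0% were at least 2-fold higher in SVZ and 18.3% in cortex, with a median log2 ratio of 0.30. Of 12143 protein-coding genes, 19.6% and 15.5% were, with a median of 0.11.

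**Figure D4:**
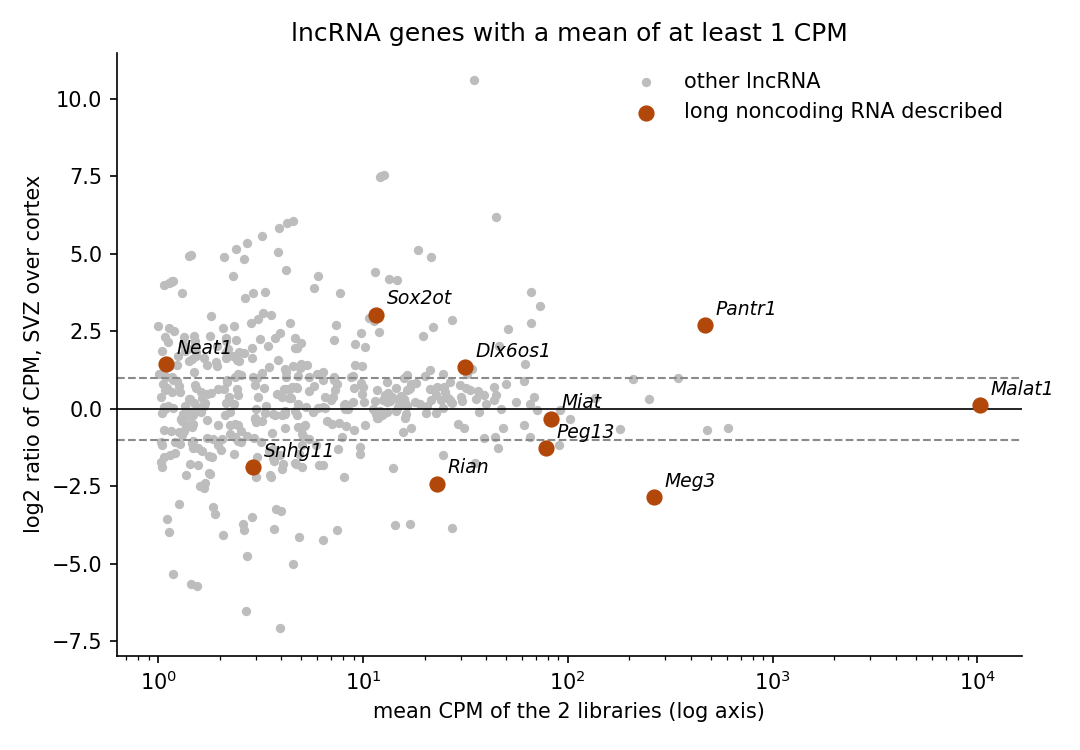
Log2 ratio of CPM, SVZ over cortex, against the mean CPM of both libraries on a log axis, for the 468 long noncoding RNA genes that reached a mean of 1 CPM. The 10 members are named, with *Malat1* farthest right at a ratio of 0.11, *Pantr1* above 2-fold and *Meg3* below it at a mean of 264 CPM, and the highest grey point is *Snhg18* at 10.58.

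A list of 46 further long noncoding RNAs known from brain, imprinting or RNA processing held 33 that reached the mean of 1 CPM. Of these, 11 were at least 2-fold higher in SVZ, 2 in cortex and 20 within 2-fold, with a median log2 ratio of 0.37. Over all genes 20.0% were past 2-fold in SVZ and 15.6% in cortex. The cortex count was 4 under TMM, DESeq2 or upper-quartile scaling and 1 with a pseudocount of 1 CPM. The highest ratio was that of *Snhg18*, a small nucleolar RNA host gene, with 3581 reads in SVZ and 1 in cortex (log2 ratio 10.58, interval 8.11 to 15.89). *Mir99ahg*, a host gene of microRNAs, had 123 and 9.16 CPM and a log2 ratio of 3.75 (3.55 to 3.96). *Firre*, an X-linked RNA of nuclear organisation, had 19.9 and 2.81 CPM (2.83, interval 2.46 to 3.22). *Dleu2*, also a microRNA host, had 20.3 and 3.63 CPM (2.48, interval 2.15 to 2.83), and *1700020I14Rik* had 90.8 and 33.6 CPM (1.43, interval 1.32 to 1.55). *Snhg18*, *Pantr2* and *Mir99ahg* thus had higher ratios than *Sox2ot*, the highest member. The 2 genes higher in cortex were *Mirg* and *Crnde*, the latter named after its values were seen, with 31 and 37 reads (log2 ratio -1.48, interval -2.21 to -0.75).

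The deposited counts also give each strand apart, which shows reads that are set aside as ambiguous when strand is ignored. For 8 of the 10 members the stranded columns added up to the unstranded count in both libraries, so that no read was set aside for a gene on the other strand. *Malat1* had 29 such reads in SVZ and 9 in cortex, and *Pantr1* had 3 in cortex. The first stranded column held between 37.8% (*Neat1*, SVZ library) and 53.8% (*Neat1*, cortex library) of a member's stranded reads, beside 49.6% and 49.7% over all genes. The interval of that share held 50% for 7 members in SVZ and 9 in cortex. The columns therefore do not separate a member from a gene on the other strand. *Dlx6* lies on the other strand within an intron of *Dlx6os1*, and reads there cannot be assigned by strand. These genes share 0 bases of exon in GENCODE M21, and 0 reads of *Dlx6os1* were set aside in either library.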

How the data were processed

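Sections of fresh-frozen embryonic mouse brain were cut by LCM, and 1 RNA-seq library was made from each area with a low-input kit. The authors trimmed adapters with cutadapt 4.1 and mapped read 1 to mm10 (Illumina iGenomes) with STAR 2.7.9a. The deposited values are raw counts of reads by gene, in an unstranded and 2 stranded columns. Reads that map to several places or overlap more than 1 gene are left out. The kit is not stated to keep strand. A merged table by the authors, which also holds CPM, fold changes and their log10, was not used.

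Unstranded counts were divided by the total of gene rows to give CPM, and log2 ratios had no pseudocount. No test and no p-value was computed. Genes that reached a mean of 1 CPM were counted, and those at least 2-fold apart were called. A count of 0 was set at 3 reads. Exact 95% Clopper-Pearson intervals came from scipy 1.17.1. At 51435667 and 22050693 gene reads, counts below about 100 gave wide intervals.

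Positions, exons and lengths came from GENCODE M21 on GRCm38 and promoters from RefSeq (GRCm38.p6), matched by symbol. RefSeq gave a class for 99.5% of genes. The authors' annotation was not used here, so its gene models may differ.

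The members and lists were chosen with earlier results of these data known. Named genes were all members, all locus partners, and, of other lists, at most 6 per direction that reached a mean of 10 CPM and a 2-fold difference. Some list genes are not reported here by name. Alternatives were DESeq2 1.42.0 size factors, TMM and upper-quartile factors (edgeR 4.0.16), library totals that omit the 10 most counted genes, a pseudocount of 1 CPM, summed stranded columns, a thinned SVZ library, other minimums and a 4-fold threshold. Python 3.11.15, numpy 2.4.6, pandas 2.3.3, matplotlib 3.10.9 and R 4.3.3 were used. Scripts were checked on simulated counts.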

Additional observations from a re-analysis of the deposited data

Results flagged for a closer look

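Reads in the stranded columns beyond the unstranded count were listed, since the comparisons of the report do not use those columns. *Dlx1* had 1821 such reads in the SVZ library beside 1399 unstranded reads, and 419 in the cortex library beside 267. *Dlx6os2*, a transcript within *Dlx6os1*, had 16 in the SVZ library beside 8 unstranded reads and 6 in the cortex library beside 0, the same numbers that were set aside for *Dlx6*. *Rtl1* had 38 in the cortex library beside 9 unstranded reads. The cause was not tested.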

How the results depend on the processing

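No paired analysis was possible because an area has a single library, which also leaves none to omit. All 10 members kept the direction of their log2 ratio under 7 alternatives (scalings, pseudocount, stranded sum, thinning), 7 of the 10 stayed at least 2-fold apart under each, and 52 of 70 values lay within the member's own counting interval. Of 107 alternative values of the summary counts and medians, 101 stayed within 1.5 times the reported count or within 0.58 (log2) of the reported median. These include 3646 and 2882 genes at least 2-fold higher in SVZ and in cortex with no minimum on CPM, and a median of -0.32 for 9 members after thinning, beside -0.11 for 10. The others came from stricter thresholds. At 4-fold, 2 members were higher in SVZ and 2 in cortex, as were 1300 and 893 of 12738 genes, beside 2547 and 1992 at 2-fold. Among genes that reached a mean of 10 CPM, 1341 and 1113 of 9027 genes were at least 2-fold higher in the SVZ and the cortex library. Upper-quartile scaling shifted the median log2 ratio of all genes by -0.102, and the share of 2-fold calls that were higher in the SVZ library was 56.1% as reported and 50.9% under that scaling. *Dlx2* changed sides, from 0.04 to -0.06, under TMM, DESeq2 and upper-quartile scaling. Depth limits *Neat1* most, with 13 cortex reads.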
